A study of Mus musculus with 8 samples.

Results

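The heterochromatin readers and writers described here are 10 genes that were chosen by name, Cbx1, Cbx3, Cbx5, Suv39h1, Suv39h2, Setdb1, Ehmt1, Ehmt2, Ezh2 and Hdac3. All 10 had a row among the 18957 genes of the count files. RNA was sequenced from cardiac fibroblasts that carried PDGFRA and no hematopoietic lineage marker. They were sorted from the ventricles of WT and Pdgfra-Cre:LmnaF/F mice aged 3 to 4 weeks, on a mixed C57BL/6 strain, with 4 libraries per genotype. The Pdgfra-Cre:LmnaF/F mice carried 2 Lmna alleles with loxP sites around exon 2 and a Pdgfra-Cre BAC transgene, whereas the WT littermates had wild-type alleles alone and no Cre. The Pdgfra promoter drives Cre in most cardiac fibroblasts and, per the methods and text of the study, in a part of the cardiac myocytes, and the deletion does not reach every fibroblast. No Cre-only library was analysed here, so an effect of the transgene cannot be told apart from that of the Lmna deletion.

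Heterochromatin at the nuclear periphery is bound to the nuclear lamina, of which lamins A and C, the products of Lmna, are a part. Its histone H3 carries methyl groups on lysine 9, written by SUV39H1, SUV39H2, SETDB1 and the EHMT1 and EHMT2 pair, and these marks are bound by the HP1 proteins encoded by Cbx1, Cbx3 and Cbx5. EZH2 writes methylation on lysine 27 of H3 as the catalytic subunit of Polycomb repressive complex 2 (PRC2). HDAC3 removes acetyl groups from histones within the NCoR corepressor complex and is tethered to the lamina through proteins such as the LAP2 products of Tmpo.

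Total counts were between 2080555 and 12502949 per library, with the lowest in WT replicate 2. Levels are given as CPM, which scale each gene by the total counts of its library, with TMM normalization. Lmna (ENSMUSG00000028063.15, chr3:88480147-88509956, minus strand) was at 331, 274, 483 and 374 CPM in the 4 WT libraries and at 126, 97.4, 130 and 90.4 CPM in the 4 Pdgfra-Cre:LmnaF/F libraries. All Pdgfra-Cre:LmnaF/F libraries were below all WT libraries (log2 fold change −1.72, SE 0.22, adjusted p = 0.00492, quasi-likelihood test of edgeR with Benjamini-Hochberg adjustment). The 8 fibroblast markers summed to between 48869 and 56433 CPM in WT and between 42217 and 58684 CPM in Pdgfra-Cre:LmnaF/F libraries, and none of them was at 0. Markers of other cells were low in sum, with endothelial genes at no more than 241 CPM, pericyte and smooth muscle genes at no more than 249 CPM, leukocyte genes at no more than 108 CPM, with Ptprc, Cd68, Cd3e and Cd79a at 0 in at least 1 library, mesothelial genes at no more than 30.2 CPM, with Msln and Wt1 at 0 in at least 1 library, and Schwann cell genes at no more than 7.71 CPM, with each of the 3 at 0 in at least 1 library. The cardiac myocyte markers summed to between 251 and 568 CPM in WT and between 179 and 2982 CPM in Pdgfra-Cre:LmnaF/F libraries, and the erythroid markers to between 31.6 and 343 CPM and between 16.8 and 600 CPM. The 12 genes of the dissociation response, such as Fos and Egr1, summed to between 1792 and 5133 CPM in WT and between 7324 and 12649 CPM in Pdgfra-Cre:LmnaF/F libraries. All 12 had a positive log2 fold change and 3 of them, Ier3, Nr4a1 and Btg2, passed the test. The part of this difference in the values of the heterochromatin genes was not tested.

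None of the 9 heterochromatin genes with enough counts to be tested differed between genotypes at an adjusted p under 0.05, beside 0.407% of the 13036 genes tested. At an unadjusted p under 0.05 there was 1 of 9, Cbx3, beside 11.9% of all genes tested. DESeq2 and limma-voom also called 0 of the 9, each with 1 at an unadjusted p under 0.05. The log2 fold change was above 0 for 3 of the 9 and below 0 for 6, and its median over the 9 was −0.08, beside a median of 0.02 over all genes tested. In none of the 9 did the CPM ranges of the 2 genotypes separate, whereas they separated in 8.03% of the genes tested. In sorted bulk RNA, fewer cells with a transcript and less of it per cell cannot be told apart.

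**Figure D1:**
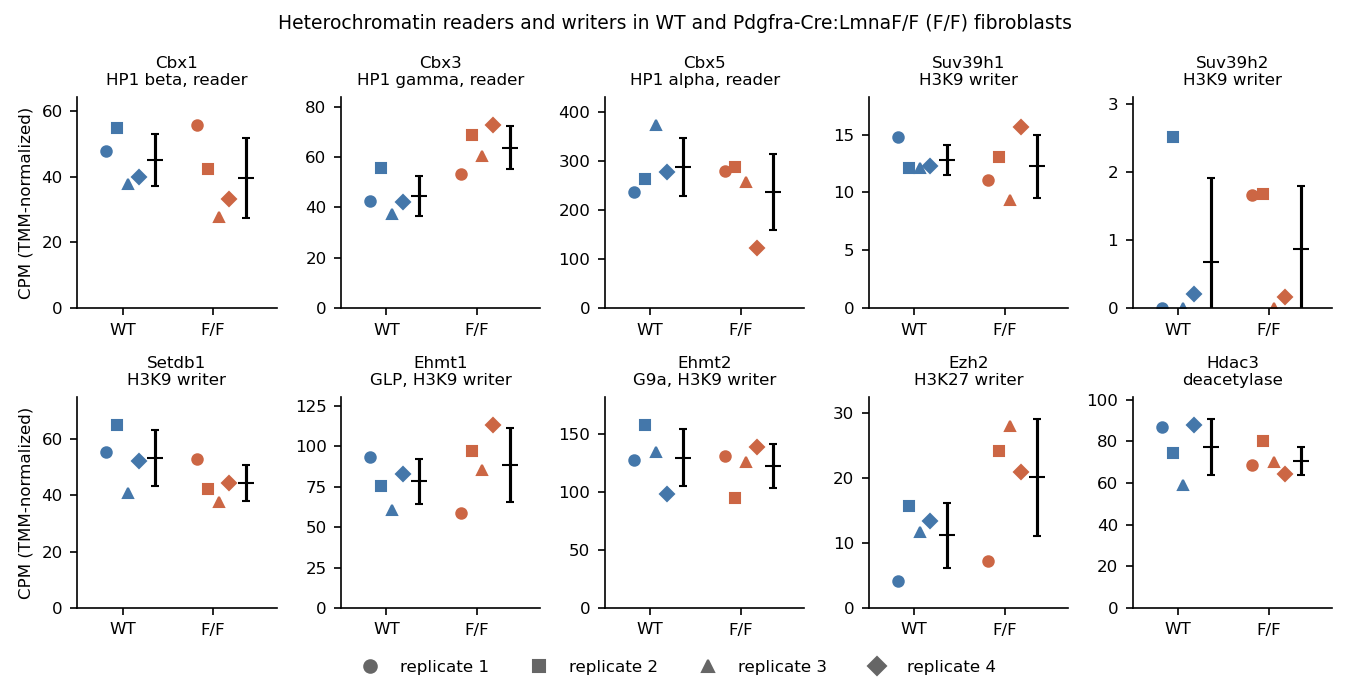
Level of each of the 10 heterochromatin genes in each library, in TMM-normalized CPM on a linear axis that starts at 0, with WT and Pdgfra-Cre:LmnaF/F (F/F) side by side. Each symbol is 1 library (the shape gives the replicate number) and the bars show the mean and SD of 4 libraries. The genotypes overlapped for every gene, and Suv39h2 was near 0 throughout.

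The transcript levels of the 10 genes were compared per kilobase of merged exons in WT libraries. Cbx5 had the highest WT level, 32.0 ± 6.62 CPM per kilobase (SD, n = 4), at the 89.7th percentile. Percentiles are over the 13006 genes tested that have an annotated length. Ehmt2 was at 23.6 ± 4.43 and Hdac3 at 19.0 ± 3.31 CPM per kilobase, and the WT ranges of these neighbours overlapped, as did those of Cbx5 and Ehmt2. A middle group followed, in which Cbx1 was at 10.5 ± 1.84, Ehmt1 at 9.64 ± 1.69, Setdb1 at 7.78 ± 1.45 and Cbx3 at 7.43 ± 1.31 CPM per kilobase. Neighbours within this group overlapped, and Cbx1 was separate from Hdac3. Suv39h1, at 2.43 ± 0.25, and Ezh2, at 1.67 ± 0.75 CPM per kilobase, overlapped with each other and were separate from Cbx3 above and from Suv39h2 below. Suv39h2 was at 0.154 ± 0.278 CPM per kilobase, at the 1.68th percentile of the genes tested. It did not pass the filter on low counts and is not among those genes. In Pdgfra-Cre:LmnaF/F libraries Cbx5, Ehmt2 and Hdac3 kept ranks 1 to 3, and Cbx3 was at rank 5 with 10.6 ± 1.44 CPM per kilobase. The order depends on the length used. With the longest coding sequence in place of merged exons, Cbx3 was at rank 2 in WT with 81.1 CPM per kilobase, beside 503 for Cbx5 and 81.1 for Cbx1.

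The 3 HP1 genes encode readers of methylated lysine 9 of H3, HP1 beta (Cbx1), HP1 gamma (Cbx3) and HP1 alpha (Cbx5). HP1 alpha and HP1 beta are found mainly in compact heterochromatin, and HP1 gamma is also found in euchromatin and over transcribed genes. Of the 3, Cbx3 and Cbx5 lie head to head with a gene for a heterogeneous nuclear ribonucleoprotein that binds pre-mRNA. Cbx3 (ENSMUSG00000029836.15, chr6:51470360-51483704, plus strand) starts 466 bases from Hnrnpa2b1, and Cbx5 (ENSMUSG00000009575.14, chr15:103191544-103239816, minus strand) starts 616 bases from Hnrnpa1, in each case on opposite strands. Cbx1 (ENSMUSG00000018666.13, chr11:96789127-96808640, plus strand) has no such partner. Among the other heterochromatin genes, Ehmt2 starts 204 bases from C2 and Hdac3 starts 63 bases from Rell2, also on opposite strands. The sequence before the starts of the HP1 genes and of Hnrnpa2b1 is shown, to compare the HP1 genes with one another and with this neighbour. The coordinates and sequences are of GRCm38 (mm10), and the sequences come from RefSeq starts (GRCm38.p6), limited to those of the 250 bases before the start that are outside annotated exons, 5′ to 3′ on the strand of the gene. Capitals mark a match to the letters of an E2F element (TTTCGCGC, TTTGGCGC, GCGCGAAA or GCGCCAAA) or of a CCAAT box (CCAAT or ATTGG). The Cbx3 stretch is chr6:51470432-51470529 (plus strand, 98 bases), inside the annotated gene, between its earliest first exon and the exon at the RefSeq start, and so outside the bases between Cbx3 and Hnrnpa2b1, the Hnrnpa2b1 stretch is chr6:51469895-51470144 (minus strand), the Cbx5 stretch is chr15:103239853-103240102 (minus strand), and the Cbx1 stretch is chr11:96788885-96789126 (plus strand, 242 bases).
Cbx3: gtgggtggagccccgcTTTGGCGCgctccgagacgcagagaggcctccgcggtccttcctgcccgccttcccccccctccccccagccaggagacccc
Hnrnpa2b1: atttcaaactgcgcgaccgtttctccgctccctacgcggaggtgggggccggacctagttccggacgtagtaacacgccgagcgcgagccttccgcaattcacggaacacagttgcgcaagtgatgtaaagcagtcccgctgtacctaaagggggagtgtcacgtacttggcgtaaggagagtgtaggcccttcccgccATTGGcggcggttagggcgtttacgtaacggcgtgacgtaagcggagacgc
Cbx5: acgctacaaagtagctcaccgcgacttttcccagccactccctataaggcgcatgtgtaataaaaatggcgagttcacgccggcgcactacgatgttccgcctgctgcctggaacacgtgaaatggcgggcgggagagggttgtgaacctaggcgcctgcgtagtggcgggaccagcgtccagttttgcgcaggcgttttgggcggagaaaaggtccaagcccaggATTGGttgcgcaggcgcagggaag
Cbx1: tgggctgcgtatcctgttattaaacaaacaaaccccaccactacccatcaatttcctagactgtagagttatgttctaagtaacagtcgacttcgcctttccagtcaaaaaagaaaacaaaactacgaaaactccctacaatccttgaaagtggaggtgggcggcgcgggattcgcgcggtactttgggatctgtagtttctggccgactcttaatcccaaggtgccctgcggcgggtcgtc

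The Cbx3 stretch held 1 E2F match, and 0.654% of the 32851 RefSeq promoter windows of 250 bases held such letters on either strand (0.944% of the windows of genes in the count files). The Cbx5 and Hnrnpa2b1 stretches each held 1 CCAAT match, which 33.8% of windows held (34.8% for genes in the count files), and the Cbx1 stretch held neither. CpG dinucleotides numbered 8 in the 98 bases of Cbx3, 29 in the 250 bases of Hnrnpa2b1, 22 in those of Cbx5 and 14 in the 242 bases of Cbx1. Over the full windows of the 9 heterochromatin genes with a window described here, the CCAAT letters also occurred before Setdb1, Ezh2 (3 matches) and Suv39h1 (2 matches), and E2F letters before Cbx3 alone. The letters TGACGTCA of a cAMP response element, held by 1.55% of windows (2.13% for genes in the count files), occurred before Suv39h2. The letters of a GC box (GGGCGG or CCGCCC), held by 32.7% of windows (47.9% for genes in the count files), occurred in at least 1 window of 8 of the 9 genes, all but Ezh2. A gene here has 1 or 2 windows, so this count is not on the same footing as a share per window. No one of these motifs contains another, and a match is a description of the letters only.

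Cbx3 had the lowest unadjusted p of the 9 genes. Its level was 42.5, 55.9, 37.5 and 42.2 CPM in WT and 53.4, 68.7, 60.4 and 72.7 CPM in Pdgfra-Cre:LmnaF/F libraries. In 3 of the 4 Pdgfra-Cre:LmnaF/F libraries it was above every WT library, and Pdgfra-Cre:LmnaF/F replicate 1 was below WT replicate 2. The fold was 1.44 with a 95% interval of 1.04 to 1.996 (log2 fold change 0.53, SE 0.22, unadjusted p = 0.0306, adjusted p = 0.364 by edgeR), so the difference did not pass the adjusted threshold. Across 8 other settings of the analysis the log2 fold change of Cbx3 was between 0.49 and 0.55, with an unadjusted p under 0.05 in 7 of the 8. When single libraries were dropped it was between 0.45 and 0.64, with an unadjusted p under 0.05 in 3 of 8. The annotation lists 8 genes named as pseudogenes or related sequences of Cbx3, and reads may be shared with them.

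Hnrnpa2b1, named here for its position and after its values were seen, was at 174, 134, 197 and 147 CPM in WT and at 308, 377, 347 and 271 CPM in Pdgfra-Cre:LmnaF/F libraries. The 2 genotypes did not overlap, and the fold was 1.996 (log2 fold change 0.997, SE 0.20, adjusted p = 0.0447 by edgeR), so that this neighbour passed the threshold. The call was kept in 7 of 8 other settings and in 2 of 8 fits that each left out 1 library. It was lost without WT replicates 1, 2 or 4 (adjusted p = 0.130, 0.160 and 0.184) and without Pdgfra-Cre:LmnaF/F replicates 1, 2 or 3 (adjusted p = 0.0674, 0.116 and 0.147, all by edgeR), with a log2 fold change between 0.91 and 1.10 throughout. It was also lost with the replicate number as a block (adjusted p = 0.0963 by edgeR).

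Cbx5 was at 238, 263, 374 and 278 CPM in WT and at 279, 289, 258 and 122 CPM in Pdgfra-Cre:LmnaF/F libraries. The first 3 Pdgfra-Cre:LmnaF/F libraries were within the WT range and replicate 4 was below it. The log2 fold change was −0.28 (95% interval −0.84 to 0.27, adjusted p = 0.753 by edgeR), and without Pdgfra-Cre:LmnaF/F replicate 4 it was −0.07. That library also had the highest sum of the 5 cardiac myocyte markers, 2982 CPM, beside 179 to 364 CPM in the other Pdgfra-Cre:LmnaF/F libraries, with none of the 5 at 0. The part of this in the Cbx5 value was not tested. Hnrnpa1, which faces Cbx5, was at 63.5, 50.3, 33.4 and 55.7 CPM in WT and at 55.5, 62.8, 61.4 and 103 CPM in Pdgfra-Cre:LmnaF/F libraries, the highest being Pdgfra-Cre:LmnaF/F replicate 4. The groups overlapped (log2 fold change 0.48, SE 0.26, adjusted p = 0.520 by edgeR).

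**Figure D2:**
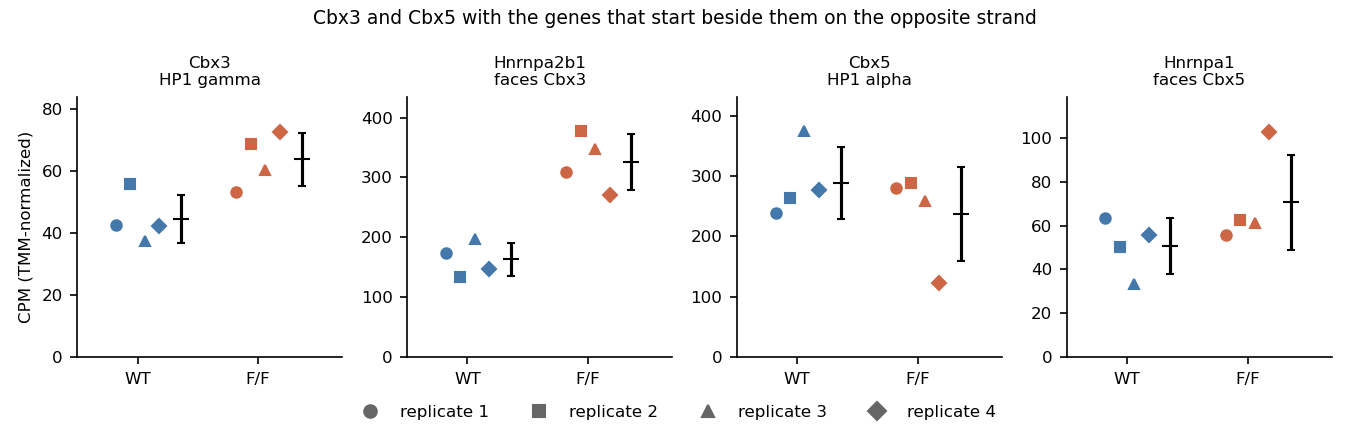
Levels of Cbx3 and Cbx5 and of the genes that start beside them on the opposite strand, in TMM-normalized CPM on linear axes that start at 0. Each symbol is 1 library (shape gives the replicate number), with the mean and SD of 4 libraries per genotype. Hnrnpa2b1 was between 134 and 197 CPM in WT and between 271 and 377 CPM in Pdgfra-Cre:LmnaF/F (F/F), while Cbx3, Cbx5 and Hnrnpa1 overlapped between genotypes.

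Cbx1 was at 47.6, 54.8, 37.7 and 39.8 CPM in WT and at 55.5, 42.2, 27.7 and 33.1 CPM in Pdgfra-Cre:LmnaF/F libraries. Replicate 1 was the highest and replicates 3 and 4 were the lowest of all Pdgfra-Cre:LmnaF/F libraries, on either side of the WT range. The log2 fold change was −0.18 (95% interval −0.74 to 0.39, adjusted p = 0.866 by edgeR).

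The composition of the HP1 family was then described as the share of each gene in the summed CPM per kilobase of the 3 genes. The share of Cbx3 was 15.9, 18.1, 11.1 and 14.9% in WT and 16.8, 21.5, 22.3 and 36.3% in Pdgfra-Cre:LmnaF/F libraries. In Pdgfra-Cre:LmnaF/F replicate 1 it was inside the WT range, and in the other 3 it was above. Pdgfra-Cre:LmnaF/F replicate 4, with the highest share, also had the highest cardiac myocyte marker sum, 2982 CPM. The part of this in the share was not tested. The mean share of Cbx3 was 15.0% ± 2.95 in WT and 24.2% ± 8.40 in Pdgfra-Cre:LmnaF/F libraries (SD, n = 4), whereas Cbx5 held 63.7% ± 7.38 and 55.6% ± 10.3, and Cbx1 held 21.3% ± 4.55 and 20.1% ± 4.65. With the longest transcript as the length, Cbx3 held 22.8% ± 3.52 in WT and 34.3% ± 9.36 in Pdgfra-Cre:LmnaF/F libraries. The log2 ratio of Cbx3 to Cbx1 counts, which needs no scaling between libraries, was −0.16, 0.03, −0.01 and 0.09 in WT and −0.06, 0.70, 1.12 and 1.14 in Pdgfra-Cre:LmnaF/F libraries. The WT values lay close together, and 3 of the 4 Pdgfra-Cre:LmnaF/F values were above all of them. These shares and ratios were given no test, since the pair was chosen with the values known.

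**Figure D3:**
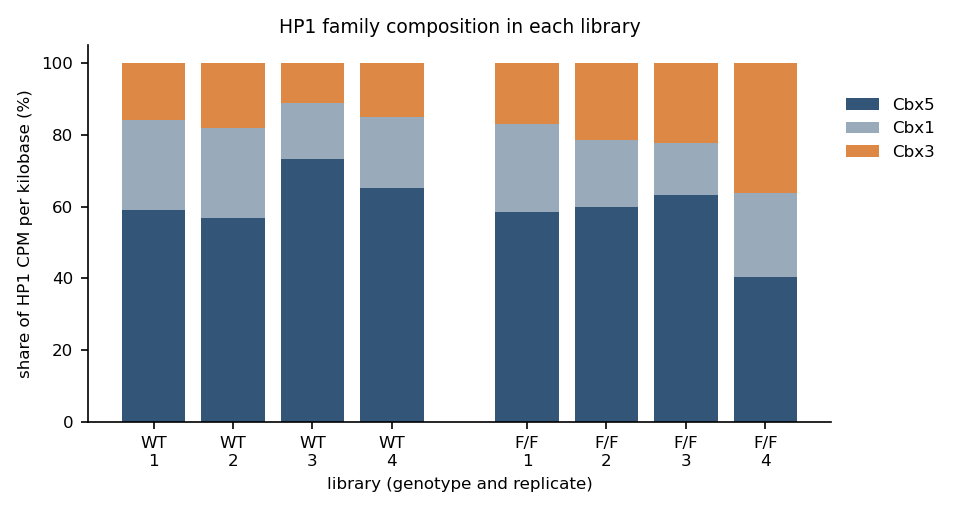
Share of Cbx5, Cbx1 and Cbx3 in the summed CPM per kilobase of merged exons of the 3 HP1 genes, in percent, with 1 stacked bar for each library. Cbx3 held 11.1 to 18.1% in WT and 16.8 to 36.3% in Pdgfra-Cre:LmnaF/F (F/F), with the highest share in replicate 4, where Cbx5 held 40.5%.

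Among the writers of lysine 9 methylation, no gene passed the test. Suv39h1 (ENSMUSG00000039231.18, chrX:8061171-8074760) and Suv39h2 (ENSMUSG00000026646.16, chr2:3455815-3475031) encode the enzymes that trimethylate lysine 9 in constitutive heterochromatin. Suv39h1 was at 14.8, 12.1, 12.1 and 12.3 CPM in WT and at 11.1, 13.0, 9.32 and 15.7 CPM in Pdgfra-Cre:LmnaF/F libraries. The WT range lay inside that of the Pdgfra-Cre:LmnaF/F libraries, and the log2 fold change was −0.07 (95% interval −0.89 to 0.76, adjusted p = 0.969 by edgeR). Suv39h2 had 0, 5, 0 and 2 counts in WT and 16, 16, 0 and 2 counts in Pdgfra-Cre:LmnaF/F libraries, and it did not pass the filter on low counts. A count of 0 allows up to 3 counts from counting error alone. Over the total counts, without the TMM factor, this is 0.279 CPM in WT replicate 1 and 0.473 CPM in WT replicate 3. In Pdgfra-Cre:LmnaF/F replicate 3 it is 0.362 CPM. The counts of Suv39h2 varied between libraries of like depth, with 16, 16 and 0 in Pdgfra-Cre:LmnaF/F replicates 1 to 3, and with no filter on low counts it was tested and not called. Both genes overlap an annotated gene on the opposite strand (Gm14820 for Suv39h1, Dclre1c and Gm13184 for Suv39h2). The libraries were stranded, but the strand setting of the counting is not given in the sources used here, so reads of these partners may be included. The same holds for Ezh2, which overlaps Gm26625 and Gm44282 over 5039 and 190 bases, for Setdb1, which overlaps Gm37500, Gm42578 and Cers2 over 1073, 194 and 75 bases, and for Cbx1, which overlaps Gm11517 over 387 bases, each on the opposite strand. Ehmt1 overlaps Gm38147 and Gm37139 on its own strand, over 1798 and 4419 bases. These overlaps are of whole gene spans, introns included, and whether exons overlap was not examined.

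Setdb1 (ENSMUSG00000015697.14, chr3:95323525-95357202) encodes a methyltransferase that is recruited with TRIM28 to silence retroelements. It was at 55.4, 64.9, 40.7 and 52.2 CPM in WT and at 53.0, 42.4, 37.6 and 44.4 CPM in Pdgfra-Cre:LmnaF/F libraries. All Pdgfra-Cre:LmnaF/F libraries but replicate 3 were within the WT range (log2 fold change −0.26, 95% interval −0.75 to 0.23, adjusted p = 0.738 by edgeR).

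Ehmt1 (GLP; ENSMUSG00000036893.17, chr2:24789928-24919614) and Ehmt2 (G9a; ENSMUSG00000013787.15, chr17:34898469-34914052) encode partners in a dimer that places the mono- and dimethyl marks of lysine 9. Ehmt1 was at 93.5, 75.5, 60.9 and 83.1 CPM in WT and at 58.5, 97.1, 85.1 and 113 CPM in Pdgfra-Cre:LmnaF/F libraries. The Pdgfra-Cre:LmnaF/F libraries held both the lowest and the highest Ehmt1 value, and the log2 fold change was 0.18 (95% interval −0.32 to 0.67, adjusted p = 0.845 by edgeR). Ehmt2 was at 128, 157, 134 and 98.4 CPM in WT and at 131, 94.8, 125 and 138 CPM in Pdgfra-Cre:LmnaF/F libraries. The ranges overlapped over most of their length (log2 fold change −0.08, 95% interval −0.51 to 0.36, adjusted p = 0.935 by edgeR). Ehmt1 made up 29.4% ± 6.37 of the summed CPM per kilobase of the pair in WT and 32.8% ± 7.48 in Pdgfra-Cre:LmnaF/F libraries (SD, n = 4), and the ranges overlapped.

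Ezh2 (ENSMUSG00000029687.16, chr6:47530139-47595341) had the largest fold change of the 9 and also the widest spread, and its counts may include reads of Gm26625 and Gm44282 on the opposite strand. It was at 4.11, 15.6, 11.7 and 13.4 CPM in WT and at 7.24, 24.2, 28.0 and 20.9 CPM in Pdgfra-Cre:LmnaF/F libraries. Replicate 1 was the lowest in both genotypes, and the other 3 Pdgfra-Cre:LmnaF/F libraries were above every WT library. The log2 fold change was 0.87 (SE 0.49, 95% interval −0.18 to 1.92, unadjusted p = 0.0991, adjusted p = 0.534 by edgeR), and it was between 0.58 and 1.14 when single libraries were dropped. Without Pdgfra-Cre:LmnaF/F replicate 1 it was 1.14, with an unadjusted p of 0.0253 and an adjusted p of 0.291 by edgeR. Ezh2 is known to be higher in dividing cells. The 14 markers of cycling cells summed to between 115 and 409 CPM in WT, with the highest in replicate 2, and between 126 and 162 CPM in Pdgfra-Cre:LmnaF/F libraries. Of the 12 tested, 4 had a positive and 8 a negative log2 fold change and none passed the test, and 10 of the 14, such as Top2a and Cdk1, were at 0 in at least 1 library. Ezh1, the other catalytic subunit of PRC2 and the one found in resting cells, had a log2 fold change of 0.03 (adjusted p = 0.978 by edgeR). Ezh2 made up 3.90, 17.3, 10.8 and 10.7% of the summed CPM per kilobase of Ezh1 and Ezh2 in WT and 7.24, 21.2, 26.3 and 13.8% in Pdgfra-Cre:LmnaF/F libraries, so that Ezh1 was the more abundant transcript in every library and the genotypes overlapped.

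Hdac3 (ENSMUSG00000024454.16, chr18:37935844-37955016) was at 87.2, 74.5, 59.3 and 87.8 CPM in WT and at 68.5, 80.2, 70.2 and 64.2 CPM in Pdgfra-Cre:LmnaF/F libraries. All Pdgfra-Cre:LmnaF/F libraries were within the WT range. The log2 fold change was −0.13 (95% interval −0.56 to 0.31, adjusted p = 0.874 by edgeR).

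The precision of these comparisons differed among the genes. The 95% intervals of Ehmt2 and Hdac3 reached from −0.51 to 0.36 and from −0.56 to 0.31 on the log2 scale, so that a doubling or halving was outside them, as it was for Setdb1, Cbx1, Cbx5, Suv39h1 and Ehmt1. The upper bound of Cbx3 was 0.997, and the interval of Ezh2 reached 1.92. The coefficient of variation within WT was 10.1% for Suv39h1, between 17.4 and 20.7% for the 7 genes other than Suv39h1 and Ezh2, and 44.6% for Ezh2.

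**Figure D4:**
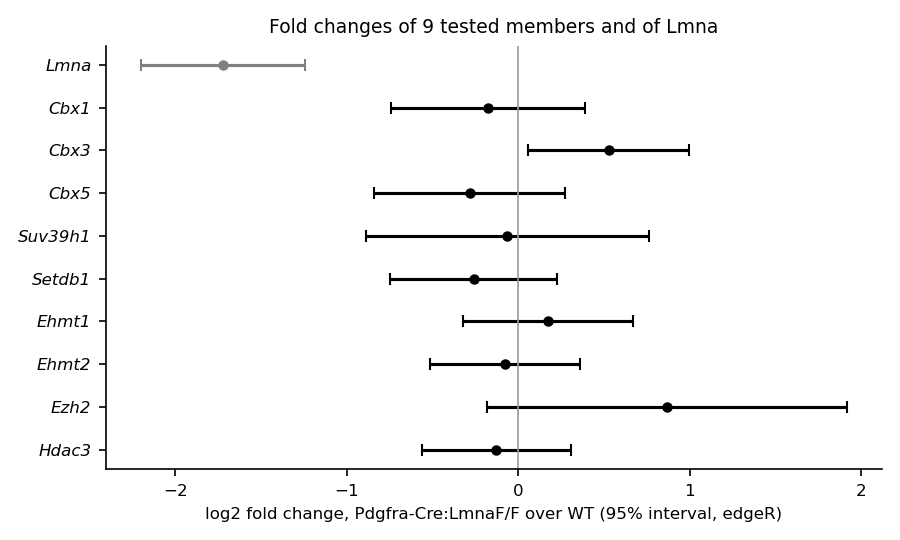
Log2 fold change of Pdgfra-Cre:LmnaF/F over WT for the 9 tested heterochromatin genes (black) and for Lmna (grey), with the 95% interval from the edgeR fit of 4 libraries per genotype. The intervals of all but Cbx3 (0.06 to 0.997) and Lmna (−2.20 to −1.24) crossed 0.

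The genes whose levels were most like those of Cbx3 over the 8 libraries were Gsdme, Adgrb3 and Exosc3, with a Pearson r of log2 CPM of 0.991, 0.963 and 0.959, the highest of 13035 genes. These are descriptions over libraries that also share genotype and depth.

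The same table was read for 7 wider lists of genes that act with the 10. Of 88 genes tested in these lists, 0 passed the adjusted threshold, and 8 (9.09%) had an unadjusted p under 0.05, beside 11.9% of all genes tested. DESeq2 called 1 of the 88, Kdm7a. The log2 fold change was above 0 for 49 and below 0 for 39, with a median of 0.08. The genotypes did not overlap in 4 of them, Mphosph8, Morc2a, Kdm7a and Tmpo, beside 8.03% of all genes tested. In what follows 1 or 2 genes are named for each list, from those with the lowest unadjusted p, and their adjusted p-values are by edgeR.

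Among the 17 partners of lysine 9 methylation, 9 had a positive and 8 a negative log2 fold change (median 0.03) and 2 an unadjusted p under 0.05. Zfp644, which encodes a zinc finger partner of EHMT1 and EHMT2, had a log2 fold change of 0.66 (SE 0.20, adjusted p = 0.199). Mphosph8, which encodes a chromodomain subunit of the HUSH complex that works with SETDB1, had one of 0.95 (SE 0.39, adjusted p = 0.359). Its level was between 5.11 and 14.6 CPM in WT and between 17.9 and 22.8 CPM in Pdgfra-Cre:LmnaF/F libraries.

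Of the 10 further PRC2 genes, 5 had a positive and 5 a negative log2 fold change (median −0.01) and 0 an unadjusted p under 0.05 by edgeR. Eed, the subunit that binds the methyl mark, had a log2 fold change of 0.62 (adjusted p = 0.527) and Mtf2, an accessory subunit that binds DNA, one of 0.56 (adjusted p = 0.603). Of the 19 genes of Polycomb repressive complex 1, 14 had a positive and 5 a negative log2 fold change (median 0.11) and 1 an unadjusted p under 0.05. That gene was Rnf2, the ubiquitin ligase subunit, with a log2 fold change of 0.62 (adjusted p = 0.370), and Cbx6, a chromodomain subunit, had one of −0.36 (adjusted p = 0.530).

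The demethylases of lysines 9 and 27 had 8 positive and 4 negative log2 fold changes among 12 tested of 13 listed (median 0.18), 2 with an unadjusted p under 0.05. Kdm7a, a demethylase of both marks, was between 30.7 and 45.9 CPM in WT and between 64.3 and 107 CPM in Pdgfra-Cre:LmnaF/F libraries, without overlap. Its log2 fold change was 0.98 (SE 0.24, adjusted p = 0.106 by edgeR), and it passed with DESeq2 (adjusted p = 0.0160) and with no filter on low counts (adjusted p = 0.0374 by edgeR). Kdm3a, a demethylase of lysine 9, had a log2 fold change of 0.68 (adjusted p = 0.269).

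In the NCoR complex with the class I deacetylases other than Hdac3, 7 of 10 genes had a positive and 3 a negative log2 fold change (median 0.21). An unadjusted p under 0.05 was found for 1 of them, which had a negative log2 fold change and is not the gene named next. Tbl1xr1, a subunit of the complex, had a log2 fold change of 0.39 (unadjusted p = 0.0987, adjusted p = 0.534 by edgeR).

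The lamina tethers had 1 positive and 7 negative log2 fold changes (median −0.14), 2 with an unadjusted p under 0.05. The positive one was that of Tmpo, whose products bind lamins and HDAC3, at 0.63 (SE 0.20, adjusted p = 0.206). It was between 67.9 and 89.6 CPM in WT and between 98.7 and 154 CPM in Pdgfra-Cre:LmnaF/F libraries, without overlap. Zbtb7b, which encodes a zinc finger protein (ThPOK) that acts with HDAC3 at lamina-bound DNA, had a log2 fold change of −0.56 (adjusted p = 0.398). The 12 genes of lysine 20 methylation on histone H4 and of DNA methylation had 5 positive and 7 negative log2 fold changes (median −0.14) and 0 with an unadjusted p under 0.05 by edgeR. Kmt5a, the monomethyltransferase of lysine 20, was at −0.50 (adjusted p = 0.533).

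**Figure D5:**
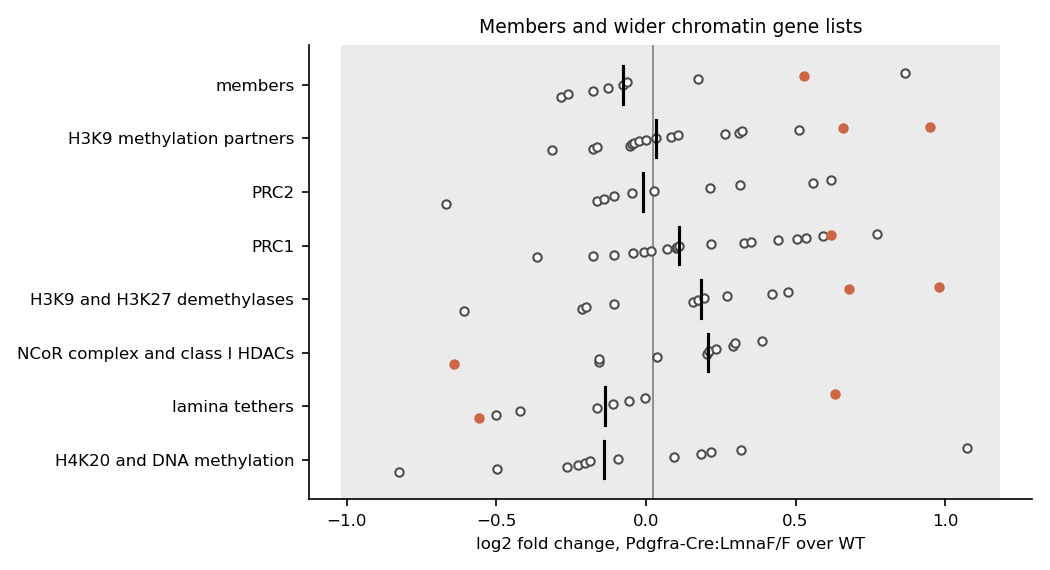
Log2 fold change of Pdgfra-Cre:LmnaF/F over WT for the 9 tested heterochromatin genes (top line, named members) and for the genes of the 7 wider lists, with 1 point per gene. Filled points have an unadjusted p under 0.05 by edgeR, black bars are list medians, the vertical line is the median of all genes tested (0.02) and the shaded band holds 90% of them, from −1.02 to 1.18. All points lie inside the band, and no gene passed the adjusted threshold.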

How the data were processed

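Total RNA with a RIN above 8 was depleted of ribosomal RNA and sequenced as stranded 150 bp paired-end libraries. The authors aligned these to mm10 with HISAT2 and counted them on GENCODE genes with featureCounts. The deposited values are unscaled counts, listed by symbol, and of 18957 symbols 18918 match GENCODE M21. Total counts limit the precision, most of all in WT replicate 2, and floors cover counting error only. Genotypes and replicate numbers were taken from the labels. The 4 libraries per genotype were compared with edgeR 4.0.16 (TMM, filterByExpr, quasi-likelihood test, genotype only, Benjamini-Hochberg over the 13036 genes kept) in R 4.3.3, with DESeq2 1.42.0, limma 3.58.1, other scalings and filters, 1 RUVr factor, a replicate block and left-out libraries as alternatives. The study used DESeq2 after an unnamed RUV variant. Intervals are 95%. Levels per kilobase used Python 3.11.15 and GENCODE lengths. RefSeq promoters were matched by symbol. Named genes were the 10, Lmna, the pair with the lowest p in each wider list (2 of these genes are not reported here) and the 3 genes most like Cbx3, and Hnrnpa2b1, Hnrnpa1, Ezh1 and Morc2a besides. The 10 genes and all lists were chosen with earlier results of these data known. The procedure was tested on simulated data.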

Additional observations from a re-analysis of the deposited data

Results flagged for a closer look

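In 4 of 78 groups of 4 libraries examined, the highest or lowest library stood apart from the other 3 by Dixon's criterion (the gap to the nearest library over the whole range), and chance gives about 1 in 20. Suv39h1 was at 14.8 CPM in WT replicate 1, with the nearest WT library at 12.3 CPM. Suv39h2 was at 2.52 CPM in WT replicate 2, with the nearest WT library at 0.207 CPM, and the first value rests on 5 counts in the shallowest library. The cardiac myocyte marker sum was 2982 CPM in Pdgfra-Cre:LmnaF/F replicate 4, with the nearest at 364 CPM. The erythroid marker sum was 600 CPM in Pdgfra-Cre:LmnaF/F replicate 1 (599.5 before rounding), with the nearest at 42.7 CPM.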

How the results depend on the processing

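The count of heterochromatin genes called was 0 under every one of the 8 other settings and with each library left out, and their median log2 fold change was between −0.12 and 0.01. The count over all genes was 53 and moved to 303 with DESeq2, 126 with limma-voom and quality weights, 274 with no filter and 81 with 1 RUVr factor. With each library left out it was between 13 (without WT replicate 4) and 76, with 24 without WT replicate 1 or 2, 26 without Pdgfra-Cre:LmnaF/F replicate 2 and 17 without Pdgfra-Cre:LmnaF/F replicate 3. The count over the wider lists was 1, Kdm7a, with DESeq2 and 1 with no filter, and 0 elsewhere. Directions turned only for fold changes near 0. With limma-voom Ehmt1 was at −0.037, Ehmt2 at 0.039 and Ezh1 at −0.052 on the log2 scale. With each library left out, Suv39h1 was between −0.21 and 0.048, Ehmt2 between −0.19 and 0.025 and Ezh1 between −0.15 and 0.12. The cause was not tested. Same-numbered libraries of the 2 genotypes did not deviate together (correlations between −0.03 and 0.04 over genes), so the numbers were not taken as pairs. With the replicate block, 36 genes were called in all, 0 of the 9 and 0 of the wider lists. Levels per kilobase rest on the length chosen. Suv39h2 had at most 16 counts in any library.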
